A study of Homo sapiens with 4 samples.

Results

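Transcripts of 9 tight junction genes were followed through the 4 RNA-seq libraries of the study. The genes were taken by symbol: TJP1, which encodes ZO-1 (zonula occludens-1), TJP3 (ZO-3), CGN (cingulin), CLDN1, CLDN4 and CLDN7 (claudins), OCLN (occludin), MARVELD2 (tricellulin) and F11R (JAM-A). All 9 were present among the 24424 gene symbols counted. The study asked whether a peptide built on the PDZ motif of ZO-1 lowers the inflammatory response to lipopolysaccharide (LPS), a component of the outer membrane of gram-negative bacteria. RNA came from BEAS-2B, an established, immortalized line of human bronchial epithelial cells, of wild type genotype in every library. Control cells received no treatment and LPS cells had 2 hr of LPS. In the remaining 2 groups, WT PDZ+LPS and mut PDZ+LPS (also written as with WT PDZ and with mut PDZ), the wild-type or mutant peptide was on the cells for 24 hr before the 2 hr of LPS. No library had peptide without LPS, so the peptide and its combination with LPS cannot be told apart.

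Tight junctions seal the space between neighbouring epithelial cells. Claudins form the strands and set which ions and solutes pass, occludin and tricellulin belong to the MARVEL proteins of the strands and of tricellular contacts, and JAM-A is an immunoglobulin-type adhesion molecule. Under the membrane, ZO-1 and ZO-3 are scaffolds whose PDZ domains bind the tails of claudins and JAM-A, and cingulin links the scaffold to actomyosin. The airway epithelium relies on this barrier against inhaled material, and TJP1 itself is the gene from which the peptide of the study was derived.

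Each condition had 1 library, with 19682929 to 25155647 counts, and size factors of 0.851 to 1.15. The conditions were not replicated, so there are no p-values. Intervals are exact binomial (Clopper-Pearson) at 95%, compare 2 libraries rather than 2 conditions, and cover counting error only. Fold changes are log2 of normalized counts plus 1, and a gene was called at a difference of at least 2-fold with at least 16 normalized counts in at least one of the 2 libraries. The epithelial keratins KRT8 and KRT18 had 12657 to 19031 counts and the mesenchymal marker VIM had 21167 to 23893, whereas EPCAM had 37 to 51. The ciliated and secretory markers SCGB1A1, SCGB3A1, FOXJ1 and TEKT1 and the pan-leukocyte marker PTPRC had 0 counts in every library, while the mucins MUC5AC and MUC5B had 9 to 22 and the myeloid markers CD14 and CD68 had 304 to 507. In the mut PDZ+LPS library fold changes followed transcript length, with a Spearman correlation of -0.60 against LPS across 12128 genes, which are not independent replicates. The correlation was 0.07 for WT PDZ+LPS against LPS and 0.15 for LPS against Control. Fold changes of the mut PDZ+LPS library against LPS are therefore given as counted and corrected for members averaging 16 normalized counts or more. The correction removes the trend over the length and GC content of the longest coding transcript. Levels per kb and family shares are as counted, as is any value given without a corrected one.

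The clearest difference among the tight junction genes was in CLDN1, at 7.72 times Control in LPS and at 5.63 to 7.77 times with either peptide. OCLN was higher in LPS than in Control by 0.59 on the log2 scale, and TJP1, CGN, CLDN7, F11R and MARVELD2 were between -0.15 and 0.17. WT PDZ+LPS differed little from LPS in the 7 well-counted genes. With mut PDZ, MARVELD2 was at 0.487 times its level in LPS, and TJP1, CGN and CLDN1 were at 0.697 to 0.737 times. TJP1 alone of these 4 had an interval that held 0 once transcript length and GC content were taken into account. Among all genes the corrected values stood at the 57.7 (TJP1), 12.3 (CGN), 13.1 (CLDN1) and 1.33 (MARVELD2) percentiles.

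**Figure D1:**
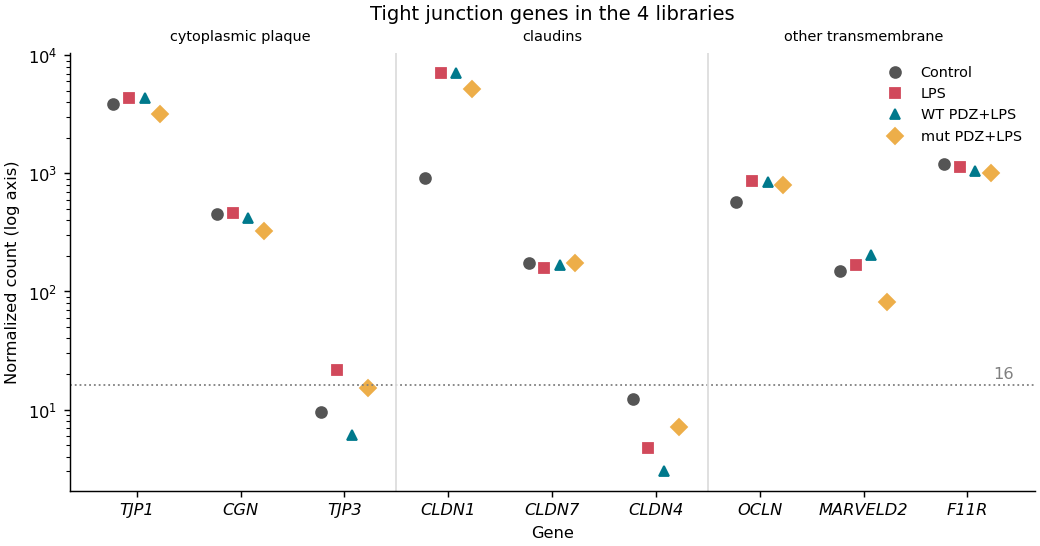
Normalized counts (log axis) of the 9 tight junction genes in the 4 libraries, 1 point per library, with a dotted line at 16 normalized counts. CLDN1 stands at 913 in Control and at 5144 to 7101 in the 3 libraries with LPS, MARVELD2 is lowest in mut PDZ+LPS at 81.1, and TJP3 and CLDN4 lie near or under the line.

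TJP1, on chromosome 15, had 4417 counts in Control, 4592 in LPS, then 4322 with WT PDZ and 2711 with mut PDZ, or 3844, 4320, 4364 and 3185 normalized counts in that order. The LPS and WT PDZ+LPS libraries were close to each other and mut PDZ+LPS was the lowest. Its log2 fold change was 0.17 (0.11 to 0.23) in LPS/Control and 0.01 (-0.05 to 0.08) in WT PDZ+LPS/LPS. With mut PDZ against LPS it was -0.44 (-0.51 to -0.37). The longest coding transcript of TJP1 has 7950 nt, longer than 91.2% of the genes with a length, and the trend at its length and GC content was -0.49. After the correction the value was 0.05 (-0.02 to 0.12), and its place among all genes moved from the 16.4 to the 57.7 percentile. With length alone corrected the value was -0.04. Against WT PDZ+LPS the value was likewise -0.45 as counted and 0.05 (-0.02 to 0.12) corrected. The mRNA of ZO-1 thus differed by less than counting error between the single WT PDZ+LPS library and the single LPS library. Its lower count in the mut PDZ+LPS library was about the size of the length and GC trend.

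CGN, on chromosome 1, had 522 counts in Control, 493 in LPS, then 418 with WT PDZ and 275 with mut PDZ. Its log2 fold change was 0.03 (-0.15 to 0.21) in LPS/Control and -0.14 (-0.33 to 0.06) in WT PDZ+LPS/LPS. The mut PDZ library gave -0.52 against LPS (-0.74 to -0.31), and -0.33 (-0.54 to -0.11) after the correction. Cingulin transcripts were thus lower in mut PDZ+LPS than in LPS on both scales, while the corrected difference from WT PDZ+LPS, -0.20 (-0.42 to 0.02), held 0. The corrected values rest on the longest coding transcript of CGN, 5091 nt. The median of its 5 coding transcripts is 589 nt, and a correction with that length was not made. CGN made up 95.2% of the level per kb of the 2 cingulin genes in Control and 91.1% to 92.7% in the other libraries, the rest being its paralogue CGNL1.

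TJP3, on chromosome 19, had 11 counts in Control, 23 in LPS, then 6 with WT PDZ and 13 with mut PDZ. It passed the rule on low counts only through the LPS library, at 21.6 normalized counts, so that a large difference was a condition of its being called. The log2 fold change was 1.10 (0.08 to 2.36) in LPS/Control and -1.68 (-3.42 to -0.50) in WT PDZ+LPS/LPS. For mut PDZ the value was -0.48 (-1.61 to 0.54) as counted and -0.64 corrected. ZO-3 was thus highest in LPS and lowest in WT PDZ+LPS, on counts of 23 and 6, and both comparisons use the same LPS library. Per kb of transcript its level was 2.86 normalized counts in Control and 6.46 in LPS, then 1.81 with WT PDZ and 4.56 with mut PDZ, where TJP1 had 401 to 549 over the 4 libraries.

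CLDN1, on chromosome 3, had 1049 counts in Control, 7503 in LPS, then 7032 with WT PDZ and 4378 with mut PDZ. All 3 libraries with LPS were far above Control, and mut PDZ+LPS was the lowest of the 3. The log2 fold change in LPS/Control was 2.95 (2.86 to 3.05), the 79th highest of the 13277 genes that passed the rule. WT PDZ+LPS differed from LPS by 0.01 (-0.04 to 0.06), and from Control by 2.96 (2.87 to 3.05). Against LPS, mut PDZ stood at -0.46 (-0.51 to -0.40), of which the length and GC trend was -0.14, so that -0.31 (-0.37 to -0.26) remained. Against Control, mut PDZ+LPS stood at 5.63 times the level, a log2 fold change of 2.49 as counted and 2.64 corrected.

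The RefSeq promoter windows (GRCh38.p14, 250 bases before to 50 after a start site, searched whole) of CLDN1 and OCLN, the well-counted members with the highest values in LPS/Control, and of TJP1 carry the following letters in their 250 bases before the start, 5′ to 3′ on the strand of the gene. Windows were found for 8 of the 9 genes, F11R excepted, 14 windows in all, and they were searched on both strands for the NF-κB (κB) consensus, for the Sp1 box GGGCGG and for the E-box CAGGTG that Snail-family and ZEB repressors of junction genes bind. The κB consensus was searched in the loose form GGGRNNYYCC, where R is A or G, Y is C or T and N is any base. The motifs were chosen with the expression values known. Capitals mark the κB match in CLDN1 (chr3:190322447-190322696, minus strand) and the CAGGTG match in the first listed windows of OCLN (chr5:69492297-69492546, plus strand) and TJP1 (chr15:29969050-29969299, minus strand).
CLDN1: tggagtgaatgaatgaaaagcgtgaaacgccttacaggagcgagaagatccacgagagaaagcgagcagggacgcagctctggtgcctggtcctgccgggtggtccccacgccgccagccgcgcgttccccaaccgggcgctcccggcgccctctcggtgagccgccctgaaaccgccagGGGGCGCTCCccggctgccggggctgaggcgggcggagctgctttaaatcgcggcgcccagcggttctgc
OCLN: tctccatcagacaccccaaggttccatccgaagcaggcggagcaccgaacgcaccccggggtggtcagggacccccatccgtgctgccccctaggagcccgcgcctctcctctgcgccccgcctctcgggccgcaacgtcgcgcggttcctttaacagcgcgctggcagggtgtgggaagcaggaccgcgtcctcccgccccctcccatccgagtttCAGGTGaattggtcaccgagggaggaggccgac
TJP1: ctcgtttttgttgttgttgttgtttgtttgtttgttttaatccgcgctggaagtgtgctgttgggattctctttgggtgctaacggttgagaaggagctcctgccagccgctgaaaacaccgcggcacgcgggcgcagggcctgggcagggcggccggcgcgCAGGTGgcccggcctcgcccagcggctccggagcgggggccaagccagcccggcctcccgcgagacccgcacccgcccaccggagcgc
The CLDN1 window held 1 κB match, GGGGCGCTCC, which starts 70 bases before the start site and overlaps no GGGCGG. The other 13 windows had none, and 11.3% of all 35116 promoter windows of the same length hold one. CAGGTG was found in 5 of the 14 windows (of TJP1, TJP3, CLDN7 and OCLN) and in 20.6% of all windows, and GGGCGG in 11 of the 14 and in 45.0% of all windows. The GC content of the members' windows was 59% to 75.3%, apart from a TJP1 window with 35.7%. The shares over all windows were not matched for GC content. In OCLN the capitals start 33 bases and in TJP1 88 bases before the start site. These matches describe letters in the windows, and binding was not measured.

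CLDN7, on chromosome 17, had 200 counts in Control, 167 in LPS, then 166 with WT PDZ and 149 with mut PDZ. The libraries were close to each other and all intervals held 0. The log2 fold change was -0.15 (-0.45 to 0.16) in LPS/Control and 0.09 (-0.23 to 0.41) in WT PDZ+LPS/LPS. Its value with mut PDZ was 0.16 (-0.17 to 0.48), and with 1923 nt, the shortest longest transcript of the 9 genes, it came to -0.16 (-0.48 to 0.17) after the correction. CLDN7 shares 38 exonic bases with ELP5 on the opposite strand and 269 with AC003688.1 on its own strand in GENCODE 29, and whether the counting used the strand is not given in the sources used here.

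CLDN4, on chromosome 7, had 14 counts in Control, 5 in LPS, then 3 with WT PDZ and 6 with mut PDZ. It was under 16 normalized counts in every library and was not called in any comparison. Its log2 fold change was -1.21 (-3.20 to 0.18) in LPS/Control, so that no difference between these 2 libraries was detectable at this depth. In WT PDZ+LPS/LPS the interval ran from -3.32 to 1.73. Against Control, WT PDZ+LPS stood at -1.71 (-4.45 to -0.17), on 3 counts and 14.

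Over all 23 claudin genes, the level per kb of transcript summed to 922 in Control, 2783 in LPS, then 2817 with WT PDZ and 2205 with mut PDZ. CLDN1 made up 28.4% (26.9% to 30.0%) of this sum in Control, 72.8% (71.9% to 73.8%) in LPS, then 72.4% (71.4% to 73.4%) with WT PDZ and 67.0% (65.7% to 68.3%) with mut PDZ. The length and GC trend was not removed from the levels and shares with mut PDZ. CLDN7 held 9.82% in Control and 2.94% to 4.13% in the libraries with LPS, and CLDN4 0.317% in Control and at most 0.0768% in the others. CLDN11 and CLDN12, named here because their values stood out, went as shares from 28.9% to 12.2% and from 20.5% to 7.58% between Control and LPS, although their own log2 fold changes were 0.35 (0.20 to 0.50) and 0.16 (0.01 to 0.30). With median transcript lengths, added after the values were seen, CLDN1 made up 17.5% in Control, where CLDN12 led with 39.9%, and 54.5% to 59.7% in the libraries with LPS, where CLDN1 led on either length. CLDN16, the neighbouring claudin on chromosome 3 and likewise named after its values were seen, had 1 count in Control and 8 to 10 in the other libraries.

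**Figure D2:**
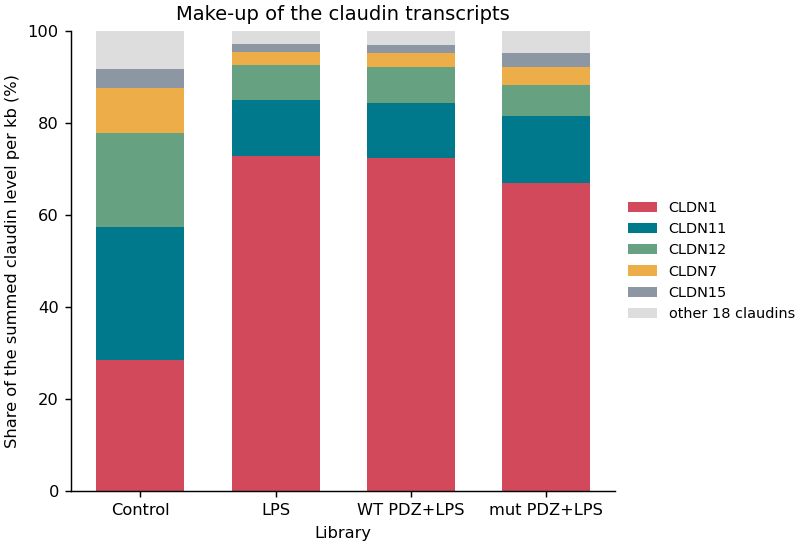
Share of each claudin in the summed claudin level per kb (%, bars from 0 to 100) in each library, with the other 18 genes joined. CLDN1 takes 28.4% of the bar in Control and 67.0% to 72.8% in the libraries with LPS.

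OCLN, on chromosome 5, had 662 counts in Control, 922 in LPS, then 835 with WT PDZ and 684 with mut PDZ, or 576, 867, 843 and 804 normalized counts. Control was the lowest library and the 3 with LPS were close together. The log2 fold change was 0.59 (0.44 to 0.74) in LPS/Control, above 93.7% of all genes but short of 2-fold. It was -0.04 (-0.18 to 0.10) in WT PDZ+LPS/LPS and -0.11 (-0.25 to 0.03) for mut PDZ against LPS. With a transcript of 6438 nt, the last value became 0.27 (0.13 to 0.42) after the correction, so that the side of 0 on which OCLN lay with the mutant peptide depended on the correction. A partial copy, the pseudogene OCLNP1 on chromosome 5, is not among the counted symbols, and how reads that fit both were handled is not given.

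MARVELD2, also on chromosome 5, had 171 counts in Control, 178 in LPS, then 200 with WT PDZ and 69 with mut PDZ. The first 3 libraries lay between 149 and 202 normalized counts and mut PDZ+LPS at 81.1. Its log2 fold change was 0.17 (-0.14 to 0.48) in LPS/Control and 0.27 (-0.03 to 0.57) in WT PDZ+LPS/LPS. The value of mut PDZ against LPS was -1.04 (-1.47 to -0.64), at the 1.44 percentile of all genes, and -0.79 (-1.22 to -0.39) after the correction, at the 1.33 percentile. Against WT PDZ+LPS it was -1.31 (-1.73 to -0.92) as counted and -1.05 (-1.48 to -0.66) corrected, and against Control -0.87 (-1.30 to -0.46) and -0.63 (-1.07 to -0.23). Tricellulin was thus the member that was furthest below LPS with the mutant peptide, with 69 counts behind the value. Within the 3 MARVEL genes its share per kb, without the correction, was 27.0% in Control, 21.9% in LPS, then 25.7% with WT PDZ and 12.7% (10.1% to 15.8%) with mut PDZ, where OCLN reached 85.9%. The third gene, MARVELD3, had 5 to 9 counts.

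F11R, on chromosome 1, had 1380 counts in Control, 1205 in LPS, then 1044 with WT PDZ and 855 with mut PDZ. Its log2 fold change was -0.08 (-0.20 to 0.03) in LPS/Control and -0.10 (-0.23 to 0.02) in WT PDZ+LPS/LPS. With mut PDZ it was -0.17 (-0.30 to -0.05), and 0.11 (-0.02 to 0.24) after the correction. Among the JAM genes and CXADR, the coxsackievirus and adenovirus receptor, F11R held 62.0% of the level per kb in Control and 56.7% to 58.3% in the other libraries. This share rests on the transcript taken: with median transcript lengths, added after the values were seen, it was 20.3% to 23.7% and CXADR led. JAM2 had 1 to 9 counts. F11R shares 1853 exonic bases with AL591806.3, a read-through gene on the same strand that is not among the counted symbols, so its count may include reads of that gene.

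**Figure D3:**
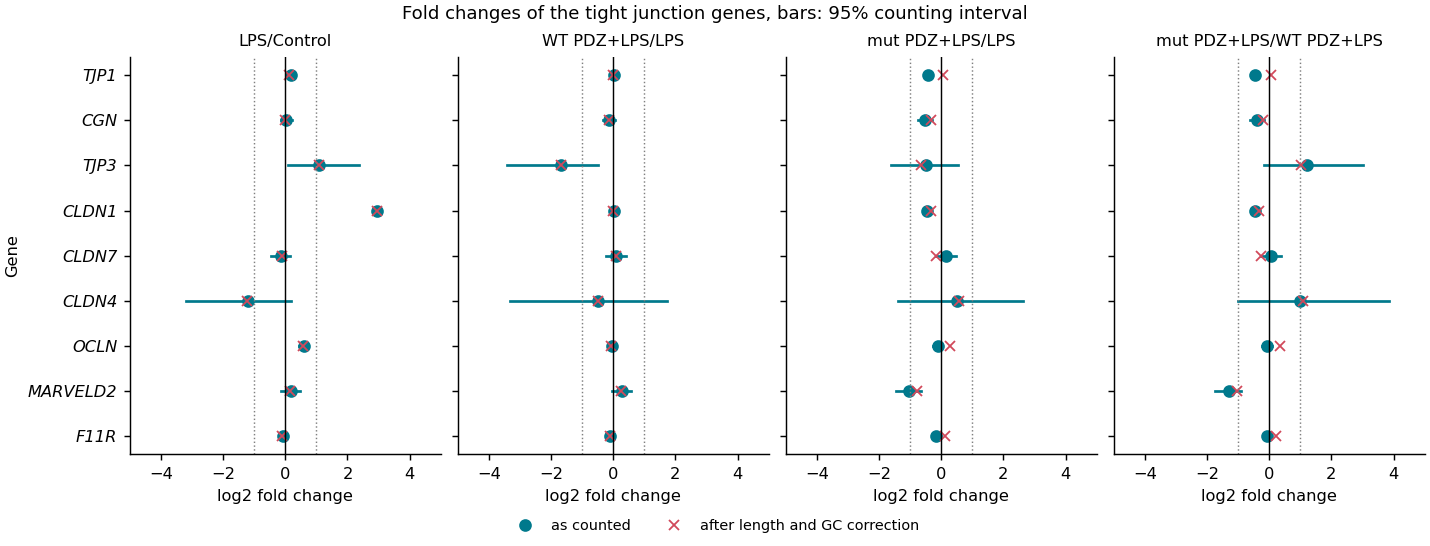
Log2 fold changes of the 9 genes in 4 comparisons. Circles are values as counted with their 95% counting intervals as bars, crosses are values after the length and GC correction, and dotted lines mark 2-fold. CLDN1 stands apart in LPS/Control at 2.95, the TJP1 cross lies at 0.05 in both panels on the right, and MARVELD2 lies at -1.04 and -1.31 there.

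In LPS/Control, which asked what LPS alone did, 2 of the 8 members that passed the rule on low counts were called, CLDN1 and TJP3, both higher. Over all 13277 genes that passed, 4.87% were called in either direction and 3.46% higher. The median log2 fold change of the 7 members averaging 16 normalized counts or more was 0.17, against -0.001 over all 13072 such genes. The counting interval lay above 0 for 3 of these 7 (TJP1, CLDN1 and OCLN), as it did for 26% of all genes, and below 0 for none, against 21.2%. The small positive values depend on the scaling, since scaling to total counts moved the median of all genes to -0.13 and TJP1 to 0.04. After the length and GC correction the members' median was 0.12 and TJP1 stood at 0.12 (0.06 to 0.18).

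WT PDZ+LPS/LPS compares the wild-type peptide followed by LPS with LPS alone. In it 1 of 8 members was called, TJP3, which was lower, where 1.37% of 13236 genes were called and 0.733% were lower. The median of the 7 well-counted members was 0.01, as for all genes (0.01), and their range was -0.14 (CGN) to 0.27 (MARVELD2). All 7 intervals held 0, whereas 12.1% of all genes had an interval above 0 and 10.1% below. For CLDN1 and TJP1, the deepest counted, the intervals bounded any difference between these 2 libraries to 0.97 to 1.05 times.

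In mut PDZ+LPS/LPS, 1 of 8 members was called, MARVELD2, which was lower, beside 3.95% of 13378 genes called and 1.9% lower. After the length and GC correction none of the members was called, where 2.2% of 12353 genes were. The interval as counted lay below 0 for 5 of the 7 well-counted members (TJP1, CGN, CLDN1, MARVELD2 and F11R) and for 34.2% of all genes, and above 0 for none, against 28.8%. The members' median was -0.44 as counted and -0.16 corrected, against -0.02 and -0.004 over all genes. With length alone corrected the members' median was -0.047. The 4 members with the longest transcripts after TJP1 were OCLN, CGN, F11R and MARVELD2. The correction moved OCLN and F11R above 0 but left CGN, CLDN1 and MARVELD2 below 0 with counting intervals that did not reach it. The share of all genes with such a corrected interval was not counted. Among all genes the corrected values of CGN, CLDN1 and MARVELD2 stood at the 12.3, 13.1 and 1.33 percentiles. The lower and upper quartiles of the corrected values over all genes were -0.19 and 0.18. The share of the remaining differences that comes from the peptide and the share that comes from the library was not tested.

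Set directly against each other, mut PDZ+LPS and WT PDZ+LPS differed by 2-fold in 1 of the 7 members that passed, MARVELD2, where 4.26% of 13372 genes were called and 2.14% were lower. It was still called after the correction, where 0.883% of 12342 genes were lower. For CLDN1 the value was -0.46 (-0.52 to -0.41) as counted and -0.31 (-0.37 to -0.26) corrected, for OCLN -0.07 and 0.35 (0.20 to 0.49), and for F11R -0.07 and 0.22 (0.08 to 0.35). The peptides differ in their PDZ motif, wild-type or mutant, and these values compare a single library of each. The 2 comparisons share the mut PDZ+LPS library, so their values are not independent.

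**Figure D4:**
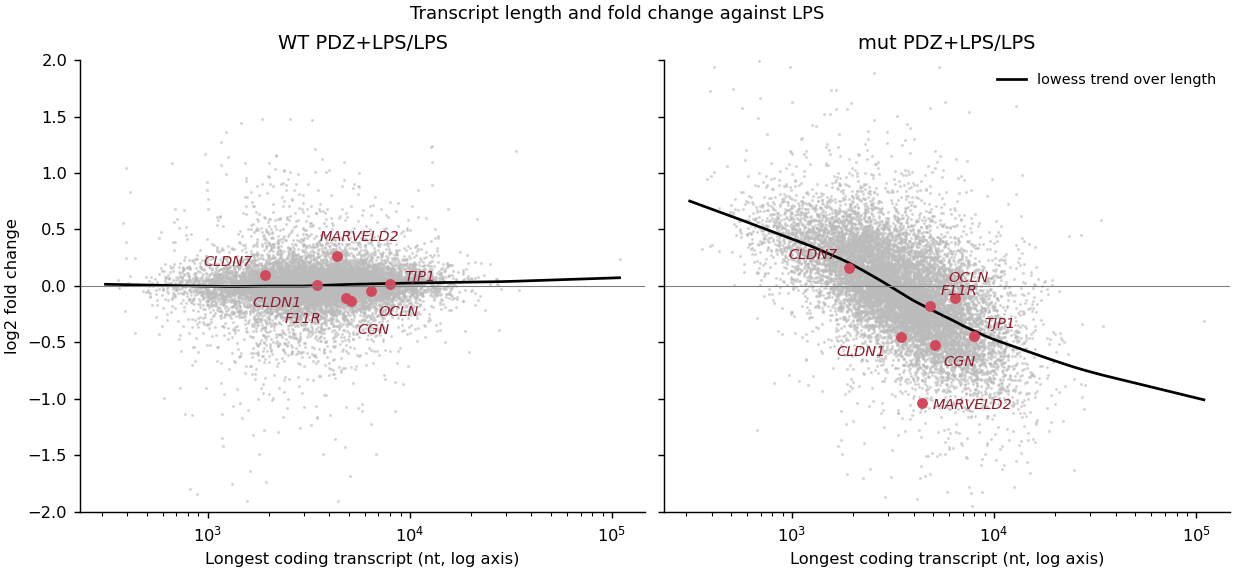
Log2 fold change against LPS by length of the longest coding transcript (nt, log axis) for 12128 genes (grey) and the 7 well-counted tight junction genes (red), in WT PDZ+LPS (left) and mut PDZ+LPS (right). The black line is the lowess trend over length and values beyond 2 in either direction are outside the axis. The line is flat on the left and falls on the right, where TJP1 lies on it and MARVELD2 well under it.

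Per kb of the longest coding transcript, the order of the members in Control was TJP1 (484 normalized counts per kb), CLDN1 (262), F11R (248), CLDN7 (90.5), OCLN (89.5), CGN (89.2), MARVELD2 (34.0), CLDN4 (2.93) and TJP3 (2.86). CLDN1 and F11R, then CLDN7, OCLN and CGN, and then CLDN4 and TJP3, did not differ from their neighbours beyond counting error. In LPS, CLDN1 stood first at 2028, TJP1 followed at 543 and F11R at 234, and OCLN at 135 stood above CGN (91.1) and CLDN7 (81.7), which did not differ. WT PDZ+LPS had CLDN1 at 2040, TJP1 at 549 and F11R at 218, and mut PDZ+LPS had them at 1478, 401 and 208. The order rests on the transcript taken. With the median length of the coding transcripts, 589 nt in place of 5091 for CGN and 743 in place of 1923 for CLDN7, CGN moved from the sixth to the first place in Control, and in LPS both CGN (787) and CLDN7 (211) stood above OCLN (161), while CLDN1 stayed first there.

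Among 53 other tight junction genes, listed from general knowledge, 31 averaged 16 normalized counts or more. In LPS/Control none of them was called, 17 had an interval above 0 and 4 below, beside 4.87% of all genes called, 26% above and 21.2% below, and the median was 0.18. WT PDZ+LPS/LPS gave no call, with 3 intervals above and 1 below 0, beside 12.1% and 10.1% of all genes, and a median of -0.02. The mut PDZ+LPS/LPS comparison had 1 called higher and 1 lower, beside 3.95% of all genes called, and 7 intervals above and 16 below 0, beside 28.8% and 34.2%, with a median of -0.25 as counted and -0.07 corrected. The gene called higher was JAM3, a junctional adhesion molecule, with 68, 41, 47 and 67 counts in the same order of libraries and a value of 1.01 (0.45 to 1.63), 1.20 corrected. The gene called lower was AMOT (angiomotin), with 63, 74, 70 and 20 counts and a value of -1.53 (-2.36 to -0.84), -1.07 corrected.

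Other plaque and scaffold genes with long transcripts had values in mut PDZ+LPS/LPS that moved towards 0 with the correction. These were MPDZ (-0.43 as counted, 0.04 corrected), INADL or PATJ (-0.65 as counted, -0.13 corrected), MLLT4 or afadin (-0.48 as counted, -0.01 corrected) and the polarity protein PARD3 (-0.77 as counted, -0.43 corrected). The transcripts of LSR, the tricellular junction protein that recruits tricellulin, and of YBX3, a ZO-1-bound transcription regulator, have 2480 and 1796 nt. The value of LSR was 0.47 as counted, 0.38 with length alone corrected and 0.12 with length and GC content, and that of YBX3 was 0.43, 0.20 and 0.16. CXADR was at -0.19 as counted and 0.18 corrected, and CGNL1 at -0.21 and 0.21. In LPS/Control these 8 genes had values between 0.03 (YBX3) and 0.67 (CGNL1), among them 0.34 (0.26 to 0.42) for MLLT4 and 0.29 (0.20 to 0.37) for LSR.

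The adherens junction lies just below the tight junction and is built on E-cadherin (CDH1) and catenins. CDH1 had 634, 605, 614 and 308 counts, and the value with mut PDZ against LPS was -0.65 (-0.86 to -0.45), -0.37 corrected, the same side as MARVELD2. CTNNB1 (β-catenin) had -0.55 and -0.27, and CTNNA1 (α-catenin) -0.27 and -0.08. None of the 11 adherens junction genes was called in any of the 4 comparisons, where 1.37% to 4.87% of all genes were called in either direction. Of 9 well-counted desmosome genes, PKP1 (plakophilin 1) was called lower in mut PDZ+LPS against LPS at -1.16 (-1.68 to -0.69), -0.94 corrected, and against WT PDZ+LPS at -1.02. Over all genes, 1.9% and 2.14% were called lower in these 2 comparisons. DSG3 (desmoglein 3), named after its values were seen, was at 0.77 (-0.07 to 1.71) with mut PDZ against LPS and was called there only on the corrected scale, at 1.11, with 20 counts in LPS and 28 in mut PDZ+LPS. On that scale 2.2% of all genes were called. Against Control, with 17 counts, DSG3 was called higher as counted at 1.10 (0.23 to 2.11). It passed the rule on low counts there only through the mut PDZ+LPS library. Of 17 genes of actomyosin and its regulators, ROCK2, a kinase that acts on junctional myosin, was called lower in mut PDZ+LPS against WT PDZ+LPS at -1.08 (-1.18 to -0.98), and stood at -0.56 corrected. In that comparison 2.14% of all genes were called lower. All 5 epithelial markers were detected, and their sum was 33197 normalized counts in LPS, then 28027 with WT PDZ and 41060 with mut PDZ. The last sum was mostly KRT8 (21612) and KRT18 (18874). Of the 5, CDH1 alone was lower with mut PDZ than in LPS, at 362 against 569. The 5 mesenchymal markers summed to 61699, 66314 and 51871. With mut PDZ, FN1 (26147 against 39880 in LPS), ZEB1 and CDH2 were lower than in LPS. VIM (24974.5 against 20934.8) and SNAI2 were higher. The median log2 fold change with mut PDZ against LPS was 0.28 as counted and 0.07 corrected for the epithelial markers, and -0.31 and 0.05 for the mesenchymal ones. The part of these markers in the differences was not tested. In these bulk libraries fewer expressing cells and less RNA per cell cannot be told apart.

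Of 9 well-counted transcription regulators of junction genes, 3 were called higher in LPS/Control, where 3.46% of all genes were. ELF3, an epithelial ETS factor, had 280, 9028, 6002 and 7061 counts and a value of 5.12 (4.95 to 5.30), KLF4 had 471, 2701, 2503 and 1980 counts and 2.63 (2.49 to 2.78), and TWIST1, a repressor of CDH1 in mesenchymal transition, had 632, 2722, 2466 and 3242 counts and 2.22 (2.09 to 2.35). CDH1 itself was at 0.04 (-0.12 to 0.21) in the same comparison. With WT PDZ against LPS, ELF3 was at -0.49 (-0.53 to -0.44) and CLDN1 at 0.01. Any link between these regulators and CLDN1 or CDH1 was not tested. GRHL3, a grainyhead factor of epithelial barriers, had 23, 40, 15 and 13 counts and was called lower with either peptide, at -1.26 (-2.28 to -0.43) and -1.25 (-2.33 to -0.37) against the same LPS library. It passed the rule on low counts there only through that library. Over all genes, 0.733% and 1.9% were called lower in these 2 comparisons. Of the marker genes, TP63 (46, 105, 79 and 51 counts) and MUC5AC (9, 22, 13 and 11) were called higher in LPS/Control, at 1.28 (0.79 to 1.84) and 1.30 (0.23 to 2.70), MUC5AC passing the rule on low counts only through the LPS library.

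**Figure D5:**
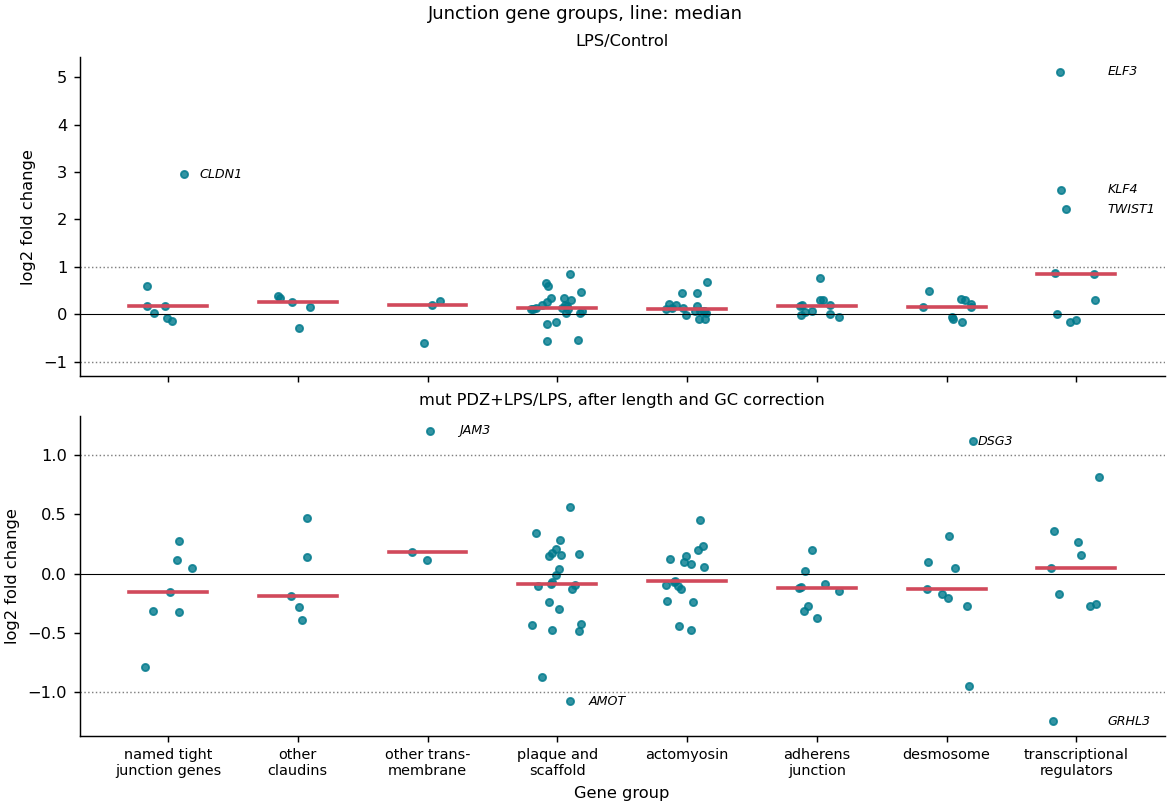
Log2 fold changes of the well-counted genes of 8 junction gene groups in LPS/Control (top) and, after the length and GC correction, in mut PDZ+LPS/LPS (bottom), 1 point per gene, with the group median as a red line and dotted lines at 2-fold. Genes beyond 2-fold are named, with CLDN1 at 2.95 and ELF3 at 5.12 in the top panel.

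The genes whose profile over the 4 libraries was nearest to that of TJP1, by Euclidean distance of centred log2 values among 13065 genes, were TRPM7 (distance 0.0068), TSPYL1 (0.016), MED14 (0.017), ACSL3 (0.018) and SON (0.020). TRPM7, a channel with a kinase domain, had 2118, 2204, 2067 and 1305 counts in the same order of libraries. Its longest transcript has 10400 nt, and those of the other 4 have 3326 to 8813 nt. Within a distance of 0.1 lay 307 genes, so many genes shared the profile of TJP1, which was lowest in mut PDZ+LPS.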

How the data were processed

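RNA of BEAS-2B cells was selected for poly(A), made into directional libraries and sequenced, 1 library per condition, with groups taken from the sample labels. Reads were trimmed by the authors and mapped with TopHat on hg19, per the labels' processing notes, and the deposited values are unnormalized counts of reads on each gene symbol. The counting tool, annotation and strand setting are not given in the sources used here, and the authors' FPKM values were not used. Counts were divided by median-of-ratios size factors (DESeq2 1.42.0, R 4.3.3), and 1 was added before log2. Transcript length and GC content came from GENCODE 29, with a value for 12128 of 13072 genes (92.8%), and the trend was a lowess fit (span 0.3; statsmodels 0.14.6) over length and then GC content. No fold is given where both counts are at most 3. The steps were tested on simulated data. The members and lists were chosen with earlier results of these data known. Named were the 9 members, 15 junction genes fixed by name (1 of them is not reported here), any other listed gene that was called in the 4 comparisons, and the 5 genes nearest to TJP1. Alternatives were scaling to upper quartiles, to totals or by TMM (edgeR 4.0.16), 5 as the pseudocount, other rules on low counts and fold, the length and GC corrections, and median transcript lengths for levels per kb.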

Additional observations from a re-analysis of the deposited data

How the results depend on the processing

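No paired analysis was possible because each condition had 1 library, and for the same reason no replicate could be left out. None of the called members changed direction under the alternatives tried. The count of members called in LPS/Control, 2 as reported, was 1 (CLDN1) under total-count scaling, a pseudocount of 5, a rule of 64 normalized counts and a threshold of 3-fold, and 3 without a rule on low counts (CLDN4, lower) or at 1.5-fold (OCLN, higher). In WT PDZ+LPS/LPS it was 0 under the rule of 64. In mut PDZ+LPS/LPS it was 0 under upper-quartile scaling, a threshold of 3-fold, and the length or the length and GC correction. In mut PDZ+LPS/WT PDZ+LPS it was 2 without a rule on low counts, as TJP3 then entered, and 0 at 3-fold. The median of the members in mut PDZ+LPS/LPS was -0.047 after the length correction and -0.16 after the length and GC correction. In mut PDZ+LPS/WT PDZ+LPS it was -0.069 without a rule on low counts, -0.14 after the length correction and -0.20 after the length and GC correction. Total-count scaling moved the median of all genes to -0.13 in LPS/Control. CLDN1 stayed above 2-fold over Control under every scaling tried. Depth limits TJP3 and CLDN4, with 3 to 23 counts a library.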
